A study of Drosophila melanogaster with 57 samples.

Results

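The regions described here are the newly called piRNA clusters of the euchromatin of *Drosophila melanogaster* chromosome arm 3L. The list deposited for the study holds 3356 regions in coordinates of the dm6 assembly, 642 of them on 3L, and the 475 that start below position 23000000 of the arm were taken as euchromatic. The other 167 regions of the arm, which start beyond that position, are called pericentromeric here. The list was made from small RNA of the ovary and of cultured ovarian cells, with 3 libraries in each of 6 groups, from a fraction of 20 to 70 nt. The groups were ovaries in which UASp-tkvM1, a form of the BMP receptor Tkv, was driven in germ cells by nos-gal4; ovaries mutant for bam (the bam deletion 86) or for bgcn (alleles bgcn20093 and bgcn20915), whose germ cells do not differentiate; GFP-positive germline stem cells (GSCs) and GFP-negative somatic cells (SCs), both sorted from 1 cultured line, vasa-GFP; hs-bam bamΔ86/bamΔ86; and ovaries of w1118 females as wild type. The list is a single one for the whole study. It gives positions and no read count, strand or group, so neither the level of piRNAs from a region nor a difference between groups could be measured, and the values below are counts and shares without replicate error.

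PIWI-interacting RNAs (piRNAs) are small RNAs of the gonad that guide Piwi proteins to transposable element (TE) transcripts and silence them. Many are cut from long transcripts of piRNA clusters, which in flies lie mostly at the border of the pericentromeric heterochromatin and hold the remains of many TEs. In somatic and germline cells of the fly ovary, piRNAs are also made from the mRNAs of some protein-coding genes, often from the 3′ UTR.

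Short stretches of sequence give examples of the DNA the regions hold. Each run below is the 30-base stretch found most often in its region by the rule given with the processing, read on the plus strand of the dm6 reference. The first comes from the region at the tip of the arm, and the others come from regions that lie wholly in repeat-masked sequence. Only the first run occurred more than 1 time in its region. Each other run was thus tied with every stretch of its region that the rule allowed.
cluster_2342, 3L:10-39: atatgatcgcgtatgcgagagtagtgccaa
cluster_2784, 3L:9277554-9277583: aatgctcttttggcatatacactgcactct
cluster_2831, 3L:9935091-9935120: aaagccatacacctagaaatggtaagcgat
cluster_2977, 3L:13820325-13820354: taaatatattcgtgttcatgtgtgaacagc
cluster_2649, 3L:6414918-6414947: aaaaagaagtgactcttgtttccccctacc
The run of cluster_2342 was a tandem repeat. It occurred 129 times on 3L, every copy within that region, and 34 times on 2L, with 0 copies on 3R, X, 4 and Y. The runs of cluster_2784 and cluster_2831, both in *roo* elements, occurred 5 and 3 times on 3L, with 3 copies each in euchromatic regions. The run of cluster_2977 occurred 5 times on 3L, 5 times on 2L and 3 times on 3R. The run of cluster_2649, also in a *roo* element, occurred 1 time on 3L and on none of 2L, 3R, X, 4 and Y. The rule that chose the runs passes over some copied stretches, so this low count is partly a product of the choice. Of the positions in cluster_2649, 99.1% began a 25-mer present more than once on the assembled chromosomes. The run therefore does not show how much of the *roo* sequence is particular to the region.

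The euchromatic regions were short and far apart. Their widths had a median of 5129 nt, with quartiles of 3307 and 9160 nt and a range of 2005 to 52657 nt, whereas the pericentromeric regions had a median of 18034 nt and reached 157335 nt. A width of 5000 nt or more was reached by 247 (52.0%) of the euchromatic and 147 (88.0%) of the pericentromeric regions, and a width of 20000 nt or more by 26 (5.47%) and 75 (44.9%). The 47 widest euchromatic regions held 31.3% of the bases of all 475. The gap to the next region had a median of 16312 nt in the euchromatin and 3034 nt beyond the boundary. Gaps under 5000 nt made up 24.5% of the 474 euchromatic gaps and 81.3% of the 166 pericentromeric ones. Most euchromatic regions stood alone in the list: 285 of the 475 had no listed neighbour within 5000 nt on either side. The longest chain of close neighbours was 6 regions over 51144 nt, from 22776890 to 22828033. Numbers are skipped in the region names, and unevenly. Of the 1081 numbers spanned by the euchromatic names 606 are absent, and of the 233 beyond the boundary 66 are. What the absent numbers stood for is not known, so gaps, chains and coverage are those of the listed regions alone.

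**Figure D1:**
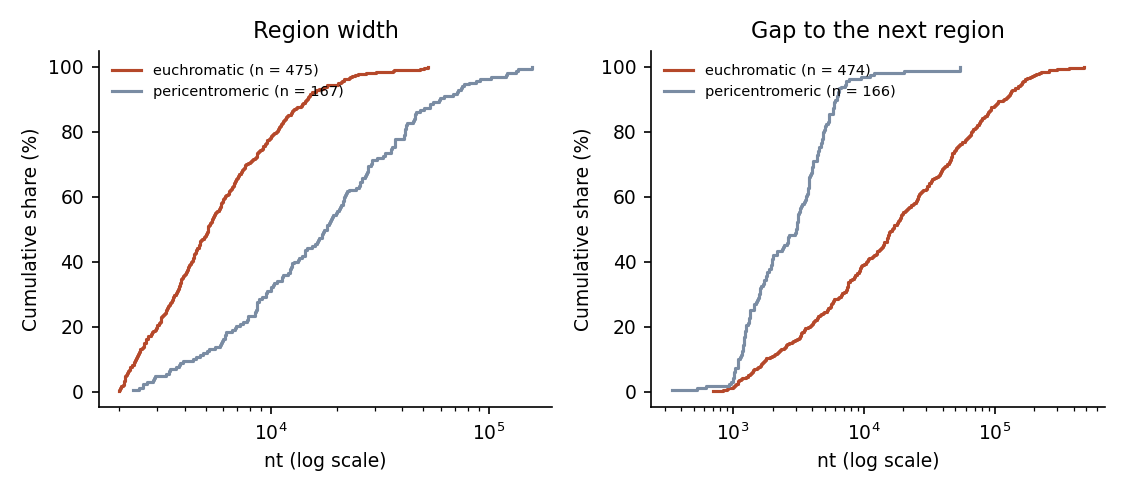
Cumulative share of regions by width (left) and of gaps by length (right), both on a log axis in nt, for euchromatic and pericentromeric regions of 3L. The euchromatic widths lie to the left (median 5129 nt against 18034 nt) and the euchromatic gaps to the right (median 16312 nt against 3034 nt).

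Coverage varied along the arm and, among the euchromatic windows, was highest in the first. The regions covered 15.2% of the 23000000 nt of euchromatin, against 87.3% of the arm beyond it. In windows of 1 Mb the covered share had a median of 13.1% over 23 windows. It was 38.4% in the first window, at the telomere, where 29 regions had a median width of 10965 nt. The lowest share, 3.23%, was in window 11, with 7 regions. Window 20 had 33 regions and a share of 25.4%, and the last euchromatic window, window 23, had 24 regions and also 25.4%. The next window, the first beyond the boundary, was covered to 86.4%. In windows of this size the step fell between 2 neighbours, and windows 21 and 22, at 19.1% and 16.0%, showed no steady climb to it. The windows are cut at the boundary, however, and the end of window 23 held wide regions. These were cluster_3418 (22871732 to 22922163) and cluster_3421 (22950542 to 22998591). How coverage ran within window 23 was not measured. At the boundary itself, the last euchromatic region, cluster_3422 (22999685 to 23009640), and the first pericentromeric one, cluster_3424 (23013195 to 23018369), both lay inside the gene *nrm*, which codes for a cell surface protein of the nervous system, so the position that divides the arm cuts through 1 gene.

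**Figure D2:**
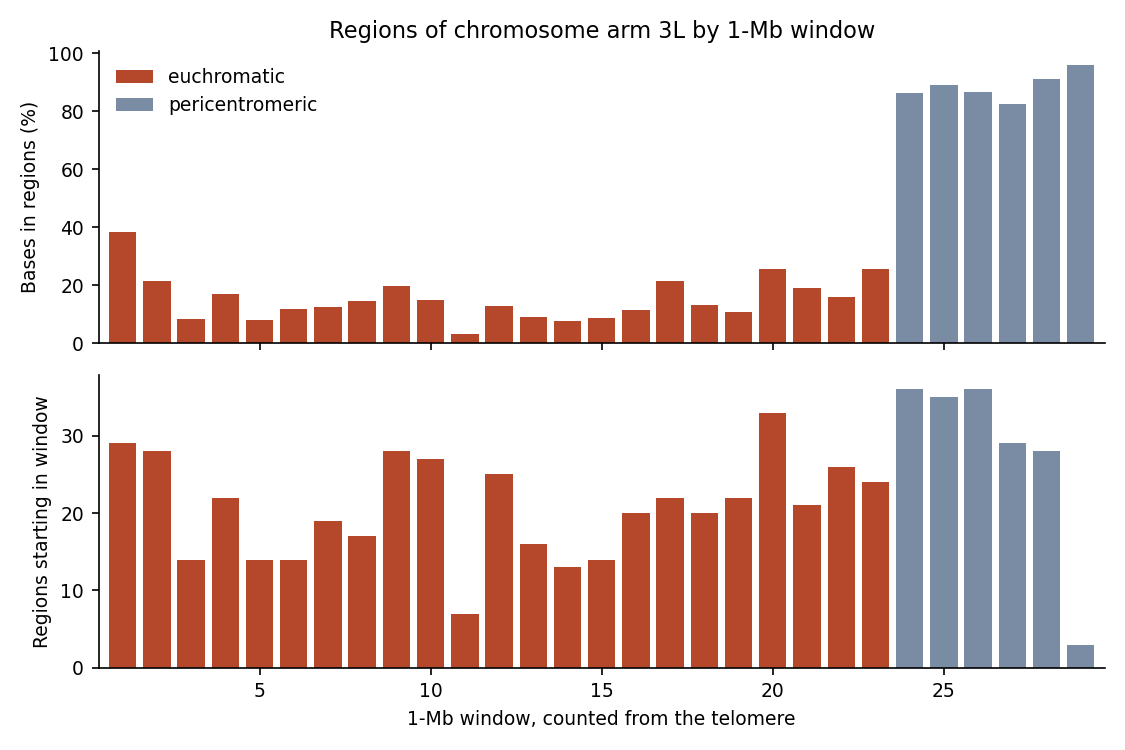
Share of bases in regions (top, %) and number of regions that start in each 1-Mb window of 3L (bottom), counted from the telomere, with euchromatic and pericentromeric windows in separate colours. The first window is at 38.4%, window 11 is lowest at 3.23%, and the first pericentromeric window is at 86.4%.

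Wide stretches of the euchromatin had no listed region. The names on either side of the widest, cluster_2586 and cluster_2604, are not consecutive. Whether regions with the absent numbers lay in such stretches cannot be read from the list. The widest gap, 480727 nt from 4821264 to 5301990, held 29 protein-coding genes, among them *shep*, an RNA-binding protein, and *Srp54k*, a subunit of the signal recognition particle. The next, 455294 nt from 14069083 to 14524376, held 23, among them *fz*, a Wnt receptor, *btl*, an FGF receptor, *D* and *Sox21a*, transcription factors of the Sox family, and *stwl*, which germline stem cells need for their maintenance. A gap of 368475 nt from 10222087 to 10590561 held the odorant receptor genes *Or67c* and *Or67d*. These gaps were not free of repeats: 19.1%, 19.1% and 22.0% of their bases were masked, where 17.2% of all euchromatic bases outside regions were. They held 8, 9 and 2 annotated TE insertions.

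The 5 widest regions differed in content. The widest, cluster_3278 (20307826 to 20360482, 52657 nt), overlapped 15 genes, 13 of them wholly, including *polo*, a mitotic kinase, *eRF1*, the translation release factor, and *alphaSnap*, which acts in membrane fusion. TE insertions took 36.1% of its bases. The longest of these, annotated as *Quasimodo* over 17552 nt, spans a *17.6* insertion of 7012 nt and an *Idefix* insertion of 6851 nt. The region cluster_3418 (22871732 to 22922163, 50432 nt) overlapped 14 genes, including *Chro*, a chromosomal protein, *slif*, an amino acid transporter, and *BoYb*, a Tudor protein of the piRNA pathway, with 4.63% of its bases in TE insertions. The region at the telomere, cluster_2342 (1 to 50431), held 1 gene, *mthl8*, of the methuselah family of receptors, and 53.2% of its bases were masked. Near the boundary, cluster_3421 (22950542 to 22998591, 48050 nt), overlapped 5 genes and 30 TE insertions, with *297* holding the most bases. The region cluster_2625 (5855018 to 5896459, 41442 nt) resembled none of these: it overlapped 0 TE insertions, genes made up 15.7% of it and 12.6% of its bases were masked. Of its positions, 0.311% began a 25-mer present more than once on the assembled chromosomes. Its 4 genes included *PolE2*, a subunit of a DNA polymerase.

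The tandem repeat at the tip filled the first 39.1% of cluster_2342. Its 129 copies ran from position 10 to 19710, and the masking covered 100% of that stretch. The copies were spaced by 149 nt 42 times, by 168 nt 42 times and by 141 nt 37 times, and these 3 spacings sum to 458 nt. Repeats of this kind are known at fly telomeres as telomere-associated sequences, and some of them are known sources of piRNAs.

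How rich in repeats the regions were depended on what was counted as a repeat. By soft-masked bases of the reference, 18.1% of the bases inside regions were repeats, against 17.2% outside, a ratio of 1.05. Annotated TE insertions took 9.15% of the bases inside and 2.85% outside, a ratio of 3.21. Positions that begin a 25-mer present more than once on the assembled chromosomes made up 12.3% inside and 3.24% outside, a ratio of 3.80. Masked bases outside TE insertions went the other way, with 11.4% inside and 15.2% outside. Masking did not cover all annotated TE sequence. The region cluster_3183 lay wholly in a TE insertion and was masked over 56.1% of its bases, while cluster_2462, also wholly in a TE insertion, was masked over 100%. In the 53 regions with at least 50% of their bases in TE insertions, the masked share had a median of 77.4% and a lower quartile of 39.2%. In the pericentromeric regions, 40.0% of bases were masked and 65.0% of positions began a repeated 25-mer.

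**Figure D3:**
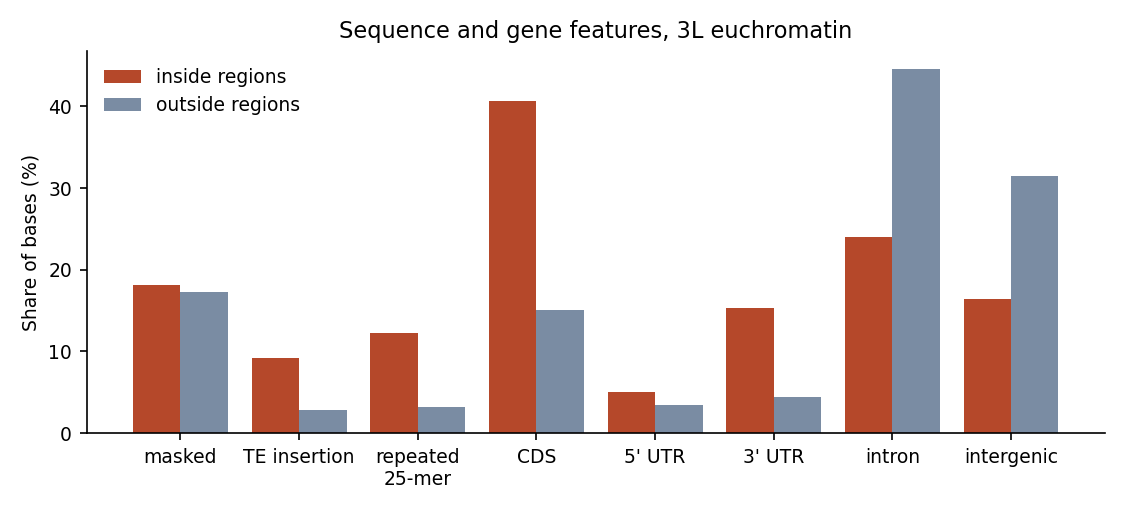
Share of bases (%) in each kind of sequence inside and outside the regions, over the 3L euchromatin. Masked bases are nearly level (18.1% against 17.2%), TE insertions and repeated 25-mers are higher inside, and introns and intergenic sequence are lower inside.

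The regions together held 36.6% of the TE bases of the euchromatin, and 53 regions held 55.2% of the TE bases inside regions. Of the 475 regions, 344 overlapped no TE insertion and 362 were masked over less than 20% of their bases, while 53 (11.2%) had at least 50% of their bases in TE insertions; of the pericentromeric regions 33 (19.8%) did. The 53 TE-rich regions were narrow, with a median width of 3265 nt, against 5428 nt for the other 422. They also held little of genes: 40 of the 53 had no exon base, 23 of these lying in an intron of 1 gene, whereas 8 of the other 422 had none. By the family with the most bases, 19 of the 53 were *roo*, 6 *mdg1*, 5 *jockey*, 4 *412* and 3 *Quasimodo*. Most of these families are retrotransposons with long terminal repeats, while *jockey* is one without them.

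Of the 505 TE insertions annotated in the euchromatin, 239 (47.3%) had at least 1 base in a region. Families with at least 10 insertions stood on both sides of that share. *roo* had 21 of 29 insertions overlapped, *1360* had 9 of 16, *412* had 6 of 12, *INE-1*, short and old, had 114 of 245, *jockey* had 6 of 16 and *Doc* had 3 of 19. Among families with 8 insertions, picked after their values were seen, all 8 of *S* and 7 each of *297*, *mdg1* and *Cr1a* were overlapped, but 2 of *pogo* and 1 each of *F* and *X*. Insertions of at least 2000 nt were overlapped in 72 of 128 cases, and shorter ones in 167 of 377.

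In some families the edges of regions fell at nearly the same places in different copies of the element. Of the 24 *roo* insertions of at least 2000 nt, whose median length was 9095 nt, 19 touched a region and 5 did not. Going from the 5′ end of the element, a region opened within a *roo* insertion 18 times, and 12 of these openings, in 12 insertions, lay between nt 5302 and 5336. The first 30 bases inside the region were identical in all 12. Some of the other openings lay nearly as far from the 3′ end as some of the 12, in insertions of other lengths. These were at nt 4927 of 8721, nt 5404 of 9199 and nt 22612 of 26406, where the 12 include nt 5304 of 9098. The insertion of 26406 nt also held the opening at nt 5305 and was counted as a single copy. A region closed within *roo* 8 times, 5 of them between nt 2003 and 2017, again with the same last 30 bases in all 5. Edges also recurred in other families, with fewer copies: in *mdg1*, 2 regions closed at nt 2352 and 2353 and 2 opened at 3442 and 3443; in *Quasimodo*, 2 opened at 2026 and 2031 and closed at 4590 and 4595; in *17.6*, 3 closed between 2031 and 2049; in *blood*, 2 opened at 236; and in *412*, 3 closed between 463 and 497, with the same last 30 bases in 2 of the 3. The 2 *412* openings at 6300 did not share their first 30 bases. Counted from the 5′ end, edges did not recur in *jockey* (2 openings and 3 closings), in the 2 openings each of *Stalker2* and *17.6*, or in the 2 closings of *blood*. Copies differ in length, however, and some of these edges lay at nearly the same distance from the 3′ end. In *jockey* the openings were at nt 828 of a copy of 3130 nt and nt 2711 of another of 5011 nt. In *17.6* they were at nt 6752 of 6895 and nt 7385 of 7540. Recurrence from the 3′ end was not counted. Reads that match several places were kept when the regions were called, and their part in these edges was not tested.

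**Figure D4:**
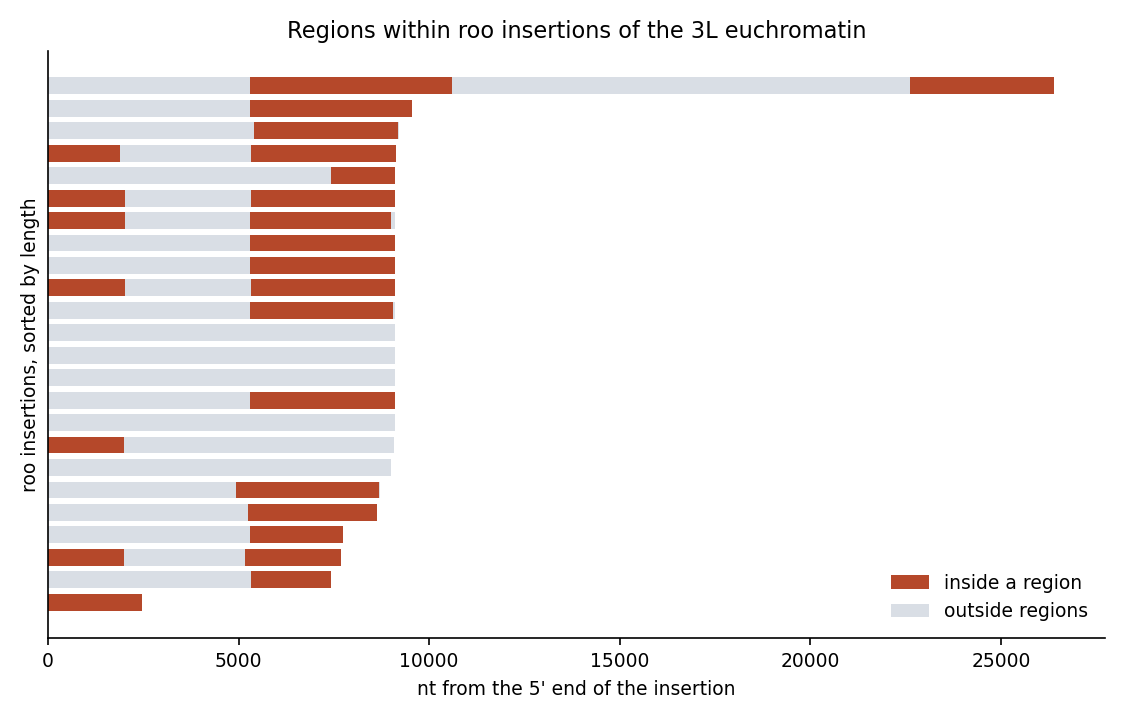
The 24 *roo* insertions of at least 2000 nt in the 3L euchromatin, sorted by length, drawn from their 5′ end in nt, with the stretches inside a region coloured. In 12 insertions a region opens between nt 5302 and 5336, and in 5 a region closes between nt 2003 and 2017; 5 insertions are wholly outside.

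Of the 53 TE-rich regions, 34 lay inside the body of 1 gene. Of the regions masked over 100% of their bases, cluster_2462 lay in *Svil*, cluster_2649 in *CG42747*, cluster_2784 in *GluRIB*, a glutamate receptor subunit, and cluster_2831 in *bma*, each within a *roo* insertion. The niche gene *bab1* was overlapped by cluster_2387 (1046307 to 1049547), which held no exon base and had 63.3% of its bases in TE sequence, led by a *412* element. The neighbouring *bab2* was overlapped by a region of 11387 nt, cluster_2396, which runs out of a *roo* element in an intron, and by another of 2511 nt, cluster_2394, of which 99.0% was exon. Both *bab* genes code for transcription factors that the niche needs to form.

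The remaining 422 regions were largely exons, which took a median of 77.7% of a region. The shares of bases that follow are over all 475 regions. Exons took 59.5% of the bases inside regions, against 24.0% outside, coding sequence 40.6% against 15.1%, 3′ UTRs 15.3% against 4.37%, and 5′ UTRs 5.03% against 3.39%. Introns took 24.0% inside and 44.6% outside, and intergenic sequence 16.5% inside and 31.5% outside. Seen from the features, 38.7% of all 3′ UTR bases of the euchromatin lay in regions, 32.6% of coding bases, 21.0% of 5′ UTR bases and 8.82% of intron bases, where the regions hold 15.2% of all bases. Of 2702 protein-coding genes, 817 (30.2%) had their 3′ end in a region and 532 (19.7%) their 5′ end. Regions overlapped a median of 2 genes; 22 overlapped none, 137 overlapped 1, and 11 overlapped 10 or more. In the pericentromeric regions, 75 of 167 overlapped none and exons made up 2.77% of bases.

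Of the 22 regions without a gene, 17 were TE-rich. The widest was cluster_3183 (18710889 to 18718389, 7501 nt), wholly inside a *Stalker2* insertion, followed by cluster_2360 (402978 to 409743, 6766 nt) in a *297* insertion and cluster_2976 (13809909 to 13815029, 5121 nt), mostly *roo*. Only cluster_2977 (13818332 to 13822826, 4495 nt) overlapped neither a gene nor an annotated TE insertion, and it was masked over 100% of its bases.

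Of the 3471 genes that end below the boundary, 1180 (34.0%) had at least 1 base in a region, 922 (26.6%) had at least 50% of their body inside, and 582 lay wholly inside. The shares differed between kinds of gene: 976 of 2702 protein-coding genes, 122 of 636 non-coding RNA genes, 41 of 50 snoRNA genes and 25 of 48 tRNA genes were overlapped. Many of the overlapped snoRNA and tRNA genes shared a region with others of their kind. Some snoRNA genes also lay inside protein-coding genes counted here, such as *RpL23A* and *RpS4*, so these genes are not separate cases. Reads that match tRNAs, snoRNAs, snRNAs or rRNAs were left out by the authors in classing piRNAs; whether that came before the regions were called is not given in the sources used here, and the list does not show which reads lie behind a region.

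Every member was overlapped in the 3 lists given here, where 34.0% of all genes were. The same held for the 6 genes of the piRNA pathway list that lie in the 3L euchromatin, given below. That list did not include *BoYb*, named above. All 12 cytoplasmic ribosomal protein genes were overlapped, with a median of 100% of the gene body inside, among them *RpL23A*, *RpL8*, *RpL28* and *RpL18*, each wholly inside. The 4 chorion genes, which code for eggshell proteins and are amplified in follicle cells, lay together in cluster_2757 (8726796 to 8732594): *Cp15* and *Cp19* were 100% inside, *Cp18* 99.4% and *Cp16* 99.2%. The edges of that region thus lie just within the outermost genes of the group. The 7 small heat shock genes of band 67B were all overlapped, by cluster_2787 and cluster_2788: *Hsp22*, *Hsp23*, *Hsp26*, *Hsp27*, *Hsp67Bc* and *CG4456* (also called *Hsp67Bb*), which shares bases with *Hsp22*, were wholly inside, and *Hsp67Ba* was inside over 9.23% of its body. Several of these chaperones are known to be made in the ovary without heat.

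Of the 9 piRNA pathway genes looked for, the 6 that lie in the 3L euchromatin were all overlapped over at least 50% of their body. *mael*, which acts in silencing by Piwi, *nxf2*, of the complex that Piwi uses in the nucleus, and *thoc7*, of the complex that carries cluster transcripts, were 100% inside. *armi*, an RNA helicase, was 98.6% inside, *arx*, a partner of Piwi, 82.2%, and *Hsp83*, the fly Hsp90, 65.4%. Of the 9 genes with known roles in the niche or ovary, 7 were overlapped, and 2 over at least 50% of the body (22.2%, where 26.6% of all genes were): *polo* at 100% and *fax* at 57.6%. *bab2* was inside over 37.7%, *CycA*, a cyclin, over 28.3%, the glypican genes *dally* and *dlp* over 17.4% and 5.72%, and *bab1* over 5.01%, while *stwl* and *Diap1*, an inhibitor of apoptosis, had 0 bases inside.

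The remaining lists ran from 0 members overlapped to a share above that of all genes. Of 46 cuticle protein genes 3 were overlapped, *Cpr67Fb* and *Cpr78Cc* over 100% and *Cpr67B* over 44.5%. The 3 glue genes of the larval salivary gland had 0 bases inside, as did *rpr*, *grim* and *skl* of the 4 genes that induce apoptosis; *hid* was inside over 41.7%. Of the iroquois genes, *ara* and *caup* were outside and *mirr* was inside over 17.1%. Of 6 genes induced by ecdysone 3 were overlapped, none over more than *Eip63E* at 10.1%. Of 30 miRNA genes 6 were overlapped, the first 4 along the arm being *mir-2501*, *mir-4913* and *mir-3642* at 100% and *mir-956* at 94.6%. Among lists added after the data were seen, 8 of 10 translation initiation factor genes, 5 of 7 proteasome genes and 8 of 16 mitochondrial ribosomal protein genes were overlapped, against 2 of 37 chemoreceptor and odorant binding genes, *Gr66a* and *Ir76a*. Overlapped protein-coding genes had a median length of 3016 nt and the others 1735 nt. Gene length, mRNA level and region width were not separated here.

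**Figure D5:**
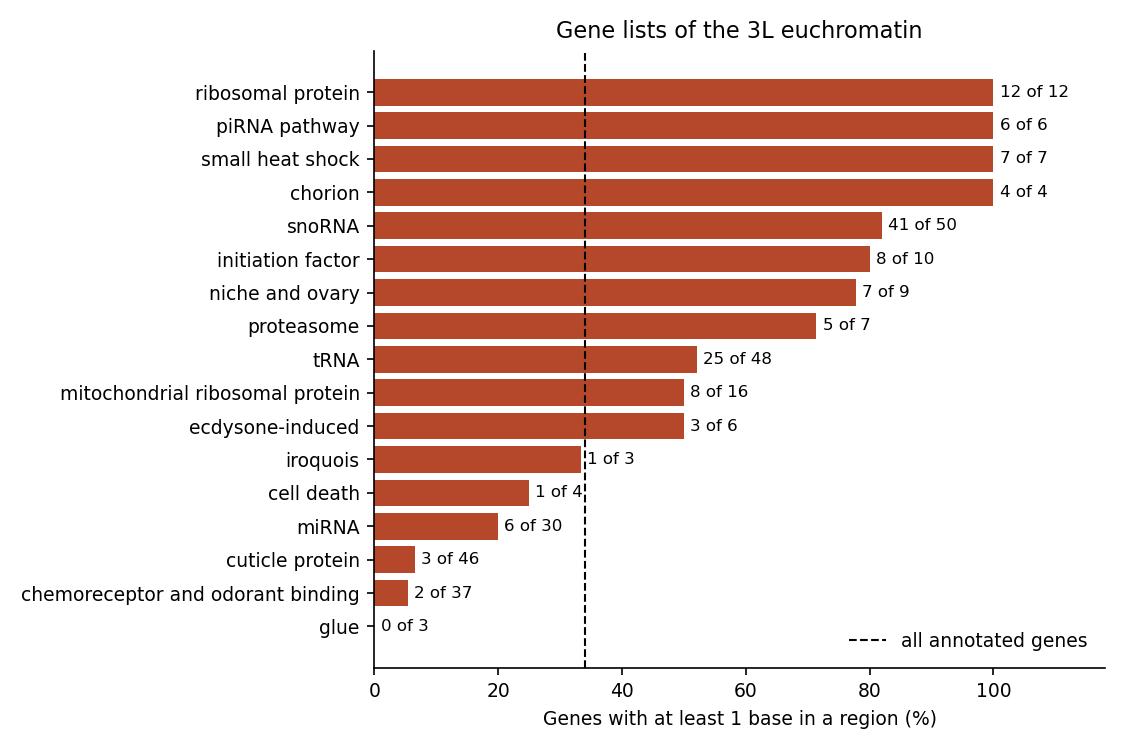
Share of the genes of each list (%) with at least 1 base in a euchromatic region of 3L, with the counts beside the bars; the dashed line is the share of all 3471 genes, 34.0%. Ribosomal protein, chorion, small heat shock and piRNA pathway genes are at the top, and cuticle, chemoreceptor and glue genes at the bottom.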

How the data were processed

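Adapters were trimmed from the small RNA reads by the authors, who mapped them to canonical TE sequences and then to dm6, keeping reads with several matches for cluster discovery alone. Windows with reads of piRNA length were merged, filtered on unique reads and on width. The width filter sets the low end of the widths, 2005 nt here. By the authors' account neighbours within 1000 nt were merged, yet 7 euchromatic gaps were under 1000 nt, the lowest 699 nt. The reason is not known. The deposited list gives start, end and name of each region, and its score column is 0 in every row. Depth per library is unknown from it, and 0 per-sample columns were left unmapped. The mRNA libraries were not used here. Groups came from the sample titles.

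Regions were read from the list and compared with the annotation of Ensembl release 115 and the RefSeq reference, both on the dm6 sequence, in Python 3.11.15 with NumPy 2.4.6, SciPy 1.17.1 and matplotlib 3.10.9. Genes exclude annotated TE insertions, a gene counted as overlapped with at least 1 base inside, and 25-mers were counted on both strands over the assembled chromosomes. The 30-base runs shown were the most frequent of their region, or tied for it, with no exact copy, on either strand, on arm 2R. Listed symbols that have changed (Hsp67Bb, Eip71CD, th) were matched through RefSeq synonyms. Named regions were the 5 widest, the most masked, the first and last, those at the boundary, the 3 widest without a gene and those holding genes of the lists; named genes were members of the lists, up to 4 in order of position for the long lists, and genes of the 5 widest regions. Families with fewer than 10 insertions, genes in gaps, genes that hold wholly masked regions and the edges within TE insertions were chosen after their values were seen. The members and lists were chosen with earlier results of these data known. With 1 list and no samples behind its rows, no test was run. The interval code was tested on simulated data.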

Additional observations from a re-analysis of the deposited data

How the results depend on the processing

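No paired analysis was possible because a pooled list carries no replicate. Of 30 alternatives, 13 left a value within 1.5 times (for the share of genes, within its exact binomial interval), 15 moved it and 2 turned the repeat ratio round. The masked ratio inside against outside was 0.954 with regions of at least 5000 nt and 1.00 (0.9995) with the first and last 1 Mb left out, so masked bases give no stable direction; by repeated 25-mers it was 3.80 and, added after seeing the data, by TE insertions 3.21. Requiring at least 5000 nt left 247 regions, a median width of 8800 nt, a median gap of 31485 nt, 24.8% of genes overlapped and 3 regions without a gene; at least 10000 nt left 103 regions and 7.71% of the euchromatin. Merging regions within 5000 nt gave a median gap of 29505 nt. The share of genes was 36.1% for protein-coding genes and 26.6% at 50% of the body. Regions without a gene numbered 1 with TE insertions counted as genes, 48 by exons and, added later, 5 without TE-rich regions. With the boundary at 22000000 every value run stayed within these limits. The list has no depth, strand or group, so widths and gaps reflect the calling thresholds as well as the RNA.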
